A study of Mus musculus with 36 samples.

Results

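The comparison described here is the effect of the PLX5622 diet on corpus callosum, the large white matter tract between the hemispheres, in control mice. Its members are the 2 control corpus callosum libraries from mice on PLX5622 chow and the 3 from mice on placebo chow, chosen by title, which makes 5 of the 36 libraries of the series. The animals were male and are labelled control, wild-type in the submitters' protocol, and carried no transgene by those labels. They ate PLX5622 at 1200 mg/kg of chow, or the control chow, from 4 weeks of age for 12 weeks. The series also holds cortex and striatum of the same design, a line with human α-synuclein under the myelin basic protein promoter, and microglia sorted by CD11b and CD45. The bulk RNA came from archived frozen tissue. Nothing in the labels ties a library to an animal, so the p-values cover only the spread between these samples, which may be technical.

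PLX5622 is an oral inhibitor of CSF1R, the receptor tyrosine kinase through which CSF1 and IL-34 keep microglia alive. Microglia are the resident macrophages of the brain. In white matter they live among oligodendrocytes, the cells that wrap axons in myelin, and they are known to clear myelin debris and to supply growth factors to oligodendrocyte precursors. Bulk tissue RNA mixes all of these cells, so fewer cells of a type and less RNA per cell cannot be told apart here.

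Counts assigned to genes were 7.31 to 21.7 M per library on placebo and 13.2 and 8.57 M on PLX5622. The share of the header total assigned to genes was lowest in PLX5622 library 2, at 59.5%, and in placebo library 3, at 66.5%, against 73.5 to 77.2% in the other 3. The 2 PLX5622 libraries differed from each other more than any placebo pair did, with a chi-square per degree of freedom of 116 against 17.5 to 35.2. Myelin genes marked the tissue as white matter. The 20 structural myelin genes summed to 20252 to 36904 CPM (counts per 1e6 assigned counts) on placebo, against 3618 to 5304 CPM in placebo control cortex. Neighbouring grey matter was also present in unequal amounts: 15 striatal projection neuron genes summed to 912 to 2947 CPM on placebo, to 3984 CPM in PLX5622 library 1 and to 761 CPM in library 2. The part of this unequal makeup in the results below was not tested.

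Microglial transcripts were lower on PLX5622, a small group of choroid plexus transcripts was higher, and no oligodendrocyte gene was called. Of 15881 genes tested, 73 (0.46%) were called with edgeR's quasi-likelihood test at a Benjamini-Hochberg adjusted p under 0.05. Of these, 60 fell (0.378%) and 13 rose (0.0819%). The median log2 change over all genes tested was 0.02, with 90% of genes between -0.73 and 0.85. Groups that did not overlap in CPM were common at this sample size, with 7.15% of all genes entirely lower and 7.06% entirely higher on PLX5622. The median standard error of a log2 change was 0.33, so a gene that was not called may still have changed 2-fold. DESeq2 called 151 genes (0.748%), 124 lower (0.614%) and 27 higher (0.134%), while edgeR on the 2 groups alone called 27 (0.178%), 24 lower (0.158%) and 3 higher (0.0198%). The calls depended on the placebo libraries: without placebo library 1, 2 or 3 in turn, 32, 31 and 35 genes were lower and 0, 0 and 1 were higher.

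**Figure D1:**
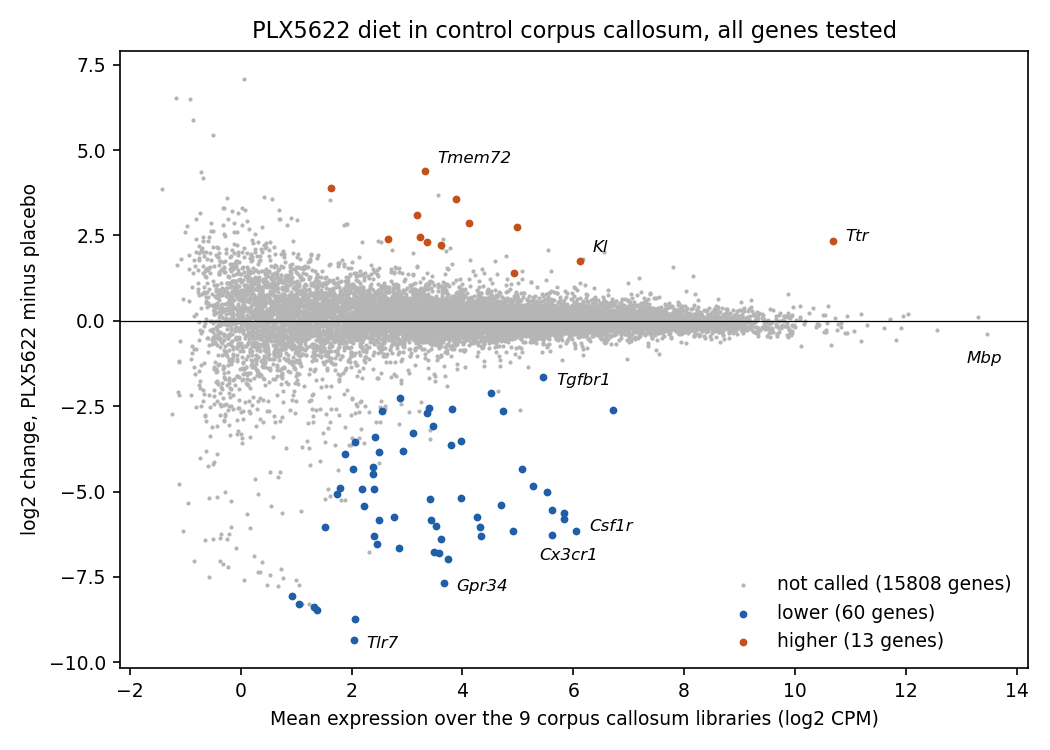
Log2 change on PLX5622 against mean expression (log2 CPM) for each of the 15881 genes tested, 1 point per gene. The 60 genes that fell (blue) reach far below the rest, the 13 that rose (orange) include Ttr and Kl, and Mbp lies near 0 at the right edge.

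Csf1r, the receptor that PLX5622 inhibits, stood at 104, 79.0 and 58.4 CPM in the 3 placebo libraries and at 1.44 and 0.70 CPM in the 2 PLX5622 libraries. Both treated libraries lay far below every placebo library, and Csf1r fell by 6.16 ± 0.54 on the log2 scale (SE; adjusted p = 0.000545). A transcript level is no measure of inhibition of the receptor. Of its ligands, Csf1 and Il34 were not called (log2 changes of 0.28 and -0.13). Csf3r, the receptor for granulocyte colony-stimulating factor, fell as well, from 13.4, 7.93 and 12.6 CPM to 0.08 and 0.12 CPM, a count ratio of 129 with a 95% counting interval of 35.5 to 1069. In the list of CSF1R and related ligands and receptors 2 of 12 genes fell, with a list median of 0.08. The other 10, Kit, Kitl and Pdgfrb among them, were not called. Csf2rb, a shared cytokine receptor subunit, was at 2.05, 1.09 and 1.98 CPM on placebo and had no counts on PLX5622, at least 12.4-fold lower with 3 counts set as the group floor. It was not called (adjusted p = 0.0576).

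The genes that define resident microglia fell together. Of 30 microglia identity genes 22 fell and none rose, with a median log2 change of -5.19 against 0.02 for all genes. For 28 of the 30, both treated libraries were lower than every placebo library. Over all genes tested, 0.378% fell and 7.15% were entirely lower. The identity genes summed to 1053, 915 and 943 CPM on placebo and to 160 and 95.4 CPM on PLX5622. The fractalkine receptor Cx3cr1, through which neurons signal to microglia, went from 76.5, 55.0 and 59.4 CPM to 0.99 and 0.58 CPM (log2 change -6.27 ± 0.35, adjusted p = 5.53e-05). It had the smallest p of any gene. P2ry12, the purinergic receptor that guides microglial processes, went from 49.3, 51.1 and 63.5 CPM to 1.06 and 0.35 CPM (-6.15 ± 0.45, adjusted p = 0.000194). Tmem119, a membrane protein used to tell microglia from other macrophages, went from 35.4, 32.8 and 39.2 CPM to 0.76 and 0 CPM (-6.31 ± 0.61, adjusted p = 0.000907). For all of these the treated libraries stood apart from the placebo libraries by more than 10-fold.

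Among the other identity genes, Itgam, the integrin chain CD11b, fell from 13.3 to 17.8 CPM over the placebo libraries to 0.23 and 0.12 CPM. The tetraspanin Cd53 and the lymphocyte antigen Ly86 fell by 6.01 ± 0.52 and 5.74 ± 0.55 on the log2 scale. Gpr34, a lysophospholipid receptor, was left with 2 counts over both treated libraries, a count ratio of 249 (95% counting interval 68.6 to 2057). The Fc receptor-like gene Fcrls and the purinergic receptor P2ry13 also had 2 counts left, with ratios of 115 (31.6 to 951) and 114 (31.4 to 947). These genes are close to the limit of what the treated libraries can show, since 3 counts over both of them correspond to 0.138 CPM.

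Not every identity gene went this low. Aif1, which encodes the common microglial stain IBA1, was measured at 3.57, 6.43 and 8.23 CPM on placebo and at 0.46 and 3.62 CPM on PLX5622. Treated library 2 reached the level of placebo library 1, the groups overlapped and Aif1 was not called (-1.68 ± 0.70, adjusted p = 1.00), while it was called when that treated library was left out (adjusted p = 0.0465). Over both treated libraries 37 counts of Aif1 remained. The 8 identity genes that were not called had log2 changes from -2.97 to -0.78.

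**Figure D2:**
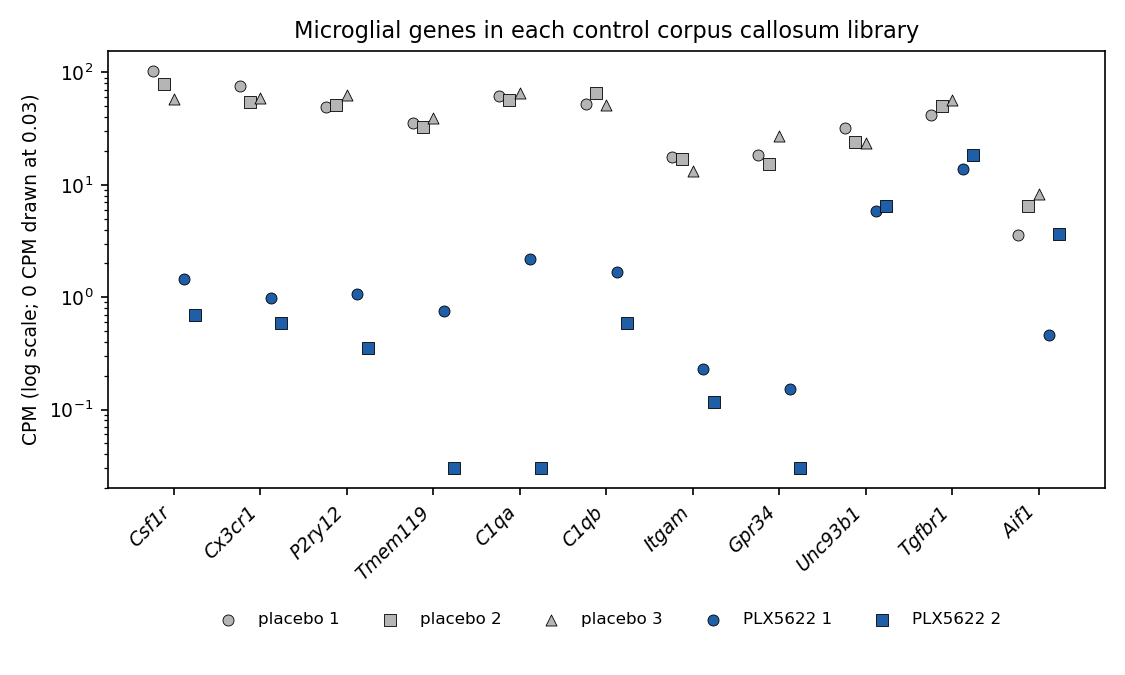
CPM on a log axis (0 CPM drawn at 0.03) of 11 microglial genes in each placebo (grey) and PLX5622 (blue) library of control corpus callosum. Cx3cr1, P2ry12, Tmem119 and Gpr34 drop to about 1 CPM or below, Unc93b1 and Tgfbr1 keep a visible residue, and Aif1 in PLX5622 library 2 lies within the placebo range.

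Complement genes split by component. The 3 chains of C1q, which starts the classical complement cascade, fell: C1qa went from 61.9, 57.4 and 65.9 CPM to 2.20 and 0 CPM, C1qb from 52.1, 66.2 and 51.1 CPM to 1.67 and 0.58 CPM, and C1qc from 49.0, 52.8 and 43.8 CPM to 2.58 and 0.12 CPM. Their log2 changes were -5.62 ± 0.76, -5.55 ± 0.41 and -5.01 ± 0.63 (adjusted p = 0.0099, 0.000194 and 0.00647), and C1qa was not called without placebo library 2 (adjusted p = 0.0531). PLX5622 library 1 held more of each chain than library 2. The other 14 complement genes tested were not called, and the median over all 17 was 0.24. C4b, a component downstream of C1q that astrocytes and oligodendrocytes also make, was at 99.4, 28.4 and 51.8 CPM on placebo and at 189 and 109 CPM on PLX5622. Both treated values lay above all placebo values, and the log2 change of 1.32 ± 0.51 did not pass the test (adjusted p = 1.00).

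Pattern recognition and Fc receptors fell in part, 6 of 16 tested, with a median of -2.78 and summed levels of 110 to 115 CPM on placebo and 35.1 and 39.6 CPM on PLX5622. Tlr7, an endosomal sensor of single-stranded RNA, had 4.65, 7.52 and 5.52 CPM on placebo and no counts on PLX5622, at least 42.7-fold lower by a floor of 3 counts over both treated libraries. Unc93b1, which carries nucleic acid-sensing toll-like receptors to the endosome, kept 23.2% of its level (31.8, 24.2 and 23.5 CPM to 5.85 and 6.42 CPM) and fell by 2.12 ± 0.30 on the log2 scale (adjusted p = 0.0146). The Fc receptor genes Fcgr3 and Fcer1g kept 3 counts each, with count ratios of 141 (48.0 to 684) and 57.1 (19.3 to 278). Tlr9, an endosomal DNA sensor, was at 0.68 to 1.73 CPM on placebo and at 1.37 and 2.10 CPM on PLX5622 and was not called. Unc93b1 was not called without placebo library 1 or 2 (adjusted p = 0.0654 and 0.0591), and Fcer1g lost its call without each placebo library (0.0654 to 0.0691).

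Lists of neighbouring myeloid states gave few calls. Of 15 myeloid transcription factors tested, Irf8, which microglial development needs, fell from 12.2, 9.30 and 10.4 CPM to 1.98 and 1.63 CPM (-2.55 ± 0.35, adjusted p = 0.011, and 0.0547 without placebo library 1). The list median was -0.78, and all 15 lay below 0. Entirely lower were 8 of the 15 and entirely higher 0, against 7.15% and 7.06% of all genes. Spi1 was at 9.08, 4.24 and 4.55 CPM on placebo and at 0.08 and 0 CPM on PLX5622. It was not called (-6.77 ± 1.24, adjusted p = 0.0508). Of 25 genes known from microglia in disease or in white matter only the chemokine Ccl6 was called. It fell from 6.43 to 14.3 CPM to 2 counts over both treated libraries (ratio 119, 32.8 to 989). The list median was -0.17, with 8 of the 25 entirely lower and 0 entirely higher. Many of that list's genes, Apoe and Ctsd among them, are also expressed by astrocytes, neurons or oligodendrocytes. Of 20 lysosome genes 1 fell, and the lysosome median was -0.08.

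Markers of other immune cells were scarce in all 5 libraries. Of 12 border-associated macrophage genes 7 could be tested and Stab1, a scavenger receptor, fell from 13.7, 16.5 and 15.3 CPM to 1.75 and 3.03 CPM (-2.70 ± 0.43, adjusted p = 0.0228). This call was lost without each placebo library (0.0765 to 0.115) and without PLX5622 library 1 (0.0707). The list summed to 26.7 to 33.6 CPM on placebo and 20.5 and 23.6 CPM on PLX5622. Stab1 alone made up 15.2 CPM of the mean placebo sum of 30.7 CPM and averaged 2.39 CPM on PLX5622. On average Stab1 fell by more CPM than the whole list did, so the summed CPM of the other members did not fall. A sum follows its most abundant members and does not show each gene. Sorted microglia held Stab1 at 823 CPM. Of the 7 tested genes 4 lay below 0 and 3 above, with a median of -1.22 and a range of -7.58 to 0.996. Entirely lower were 3 of the 7 and entirely higher 1, against 7.15% and 7.06% of all genes. Monocyte and neutrophil genes summed to 12.2 to 15.3 CPM on placebo and 1.52 and 3.27 CPM on PLX5622, and Csf3r was the 1 of their 3 tested genes that fell. Csf3r alone made up 11.3 CPM of the mean placebo sum of 14.1 CPM, and sorted microglia held it at 1051 CPM. Of 14 T, B and NK cell genes 2 had enough counts to be tested, and neither was called. None of 7 class II and 11 class I antigen presentation genes and none of 19 interferon-stimulated genes was called. Class I genes summed to 160 to 208 CPM on placebo and 153 and 117 CPM on PLX5622. Entirely lower were 3 class I, 3 class II and 0 interferon-stimulated genes, and entirely higher 0, 0 and 3. Over all genes these shares were 7.15% and 7.06%.

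Genes enriched in sorted microglia gave a second view of the fall. Genes were taken as microglia-enriched where 3 libraries of sorted control microglia, tagged as heterozygous for the transgene, averaged at least 50 CPM and at least 16 times placebo control cortex, a choice that used no callosum library. Of 496 such genes 472 had at least 1 CPM in placebo callosum and 471 were tested. All 60 genes that fell belonged to this set, and none of the 13 that rose did. Compared with placebo callosum, sorted microglia had at least 10 times the level of each of the 60, with a median of 84.1 times and a range of 24.98 to 174 times. Over all genes tested, 4.72% were at least 10 times higher in sorted microglia. In this set 19 of the 472 had no counts on PLX5622, and 6 of these were among the 60 called lower.

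The fraction left differed widely between these genes. It is a fraction of the whole-tissue level, so it does not measure how much microglial RNA remained. The microglia identity genes summed to a mean of 970 CPM in placebo callosum and 87340 CPM in sorted microglia. How much of each gene's level came from other cells was not tested. The median gene kept 55.6% of its placebo level, with quartiles of 16.0 and 84.5%. Under 10% was left for 88 genes and more than 50% for 251 genes. The share left decreased with enrichment: the median was 82.0% for the 164 genes enriched 16 to 32 times over cortex, 55.6% for 155 genes at 32 to 64 times, 14.4% for 132 genes at 64 to 128 times and 3.19% for 21 genes at 128 times or more. Calls followed, with 1, 12, 38 and 9 genes lower in these 4 bins. The order did not hold for every gene, since 4 genes enriched 16 to 32 times kept under 10%.

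**Figure D3:**
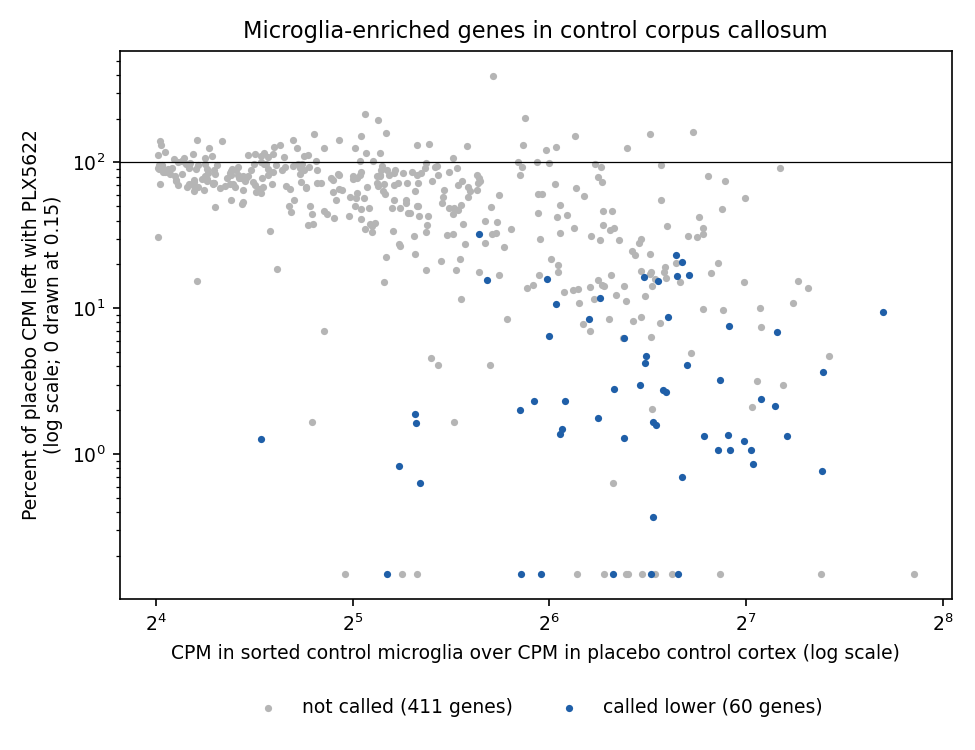
Percent of the placebo CPM left on PLX5622 (log axis, 0 drawn at 0.15) against the ratio of sorted control microglia to placebo control cortex (log axis), 1 point per microglia-enriched gene tested. Genes at 16 to 32 times sit near the line at 100%, and those above 64 times spread down to 0, with the called genes in blue.

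At the low end, Dock2, a migration factor of blood cells, the myeloid receptor Clec5a and Wdfy4, a gene of antigen presentation, had no counts on PLX5622 and were at least 28.1-fold, 23.1-fold and 22.03-fold lower. Ptafr, the platelet-activating factor receptor, was at least 20.7-fold lower and was not called (adjusted p = 0.24). Dock2 and Clec5a lost their calls without placebo library 1 (adjusted p = 0.0654 and 0.0618), Dock2 also without library 2 (0.0826), Clec5a also without library 3 (0.0668), and Wdfy4 without each of the 5 libraries (0.0521 to 0.115). At the high end, the protein kinase Prkcd was at 56.3, 50.4 and 32.1 CPM on placebo, 350 CPM in PLX5622 library 1 and 14.9 CPM in library 2. The treated libraries lay on opposite sides of the placebo range, and Prkcd was not called. P3h2, Zfp69 and Col6a3 kept 214, 203 and 197% of their placebo level and were not called either.

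Prkcd was not alone in PLX5622 library 1. Slc17a6, Tcf7l2, Lef1 and Ntng1, picked after their values were seen because thalamic neurons express them along with Prkcd, were also highest there among the 5 libraries. Slc17a6, a vesicular glutamate transporter, was at 24.96, 36.4 and 37.2 CPM on placebo and at 90.7 and 39.8 CPM on PLX5622. Ntng1 was at 16.7 to 31.0 CPM on placebo, 105 CPM in PLX5622 library 1 and 15.3 CPM in library 2. Slc17a6 was above placebo in both treated libraries, while Prkcd, Tcf7l2, Lef1 and Ntng1 were above placebo in library 1 and below it in library 2.

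The short promoters of 3 genes that fell are shown because they hold the purine-rich sequence GAGGAAGT, a core recognised by PU.1, the product of Spi1 and a main transcription factor of myeloid cells. The genes, C1qc, the cysteine protease Ctss and Cd53, were picked after their values were seen. Each sequence covers 250 bases before to 50 bases after the RefSeq start on GRCm38.p6, printed 5′ to 3′ on the strand of the gene. Capitals mark GAGGAAGT or its inner GAGGAA, or their reverse complements.
C1qc (chr4:136892865-136893164, minus strand): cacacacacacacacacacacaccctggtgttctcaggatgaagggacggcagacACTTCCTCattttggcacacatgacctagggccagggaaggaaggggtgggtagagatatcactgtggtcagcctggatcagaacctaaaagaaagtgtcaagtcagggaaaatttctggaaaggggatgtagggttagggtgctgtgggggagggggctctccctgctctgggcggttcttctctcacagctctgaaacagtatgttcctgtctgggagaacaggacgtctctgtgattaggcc
Ctss (chr3:95526536-95526835, plus strand): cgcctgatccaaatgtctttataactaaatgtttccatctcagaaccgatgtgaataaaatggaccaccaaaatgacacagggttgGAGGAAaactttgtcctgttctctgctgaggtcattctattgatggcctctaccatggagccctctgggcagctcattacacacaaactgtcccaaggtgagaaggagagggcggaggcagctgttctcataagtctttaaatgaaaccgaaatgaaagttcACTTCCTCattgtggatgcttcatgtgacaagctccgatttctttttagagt
Cd53 (chr3:106790100-106790399, minus strand): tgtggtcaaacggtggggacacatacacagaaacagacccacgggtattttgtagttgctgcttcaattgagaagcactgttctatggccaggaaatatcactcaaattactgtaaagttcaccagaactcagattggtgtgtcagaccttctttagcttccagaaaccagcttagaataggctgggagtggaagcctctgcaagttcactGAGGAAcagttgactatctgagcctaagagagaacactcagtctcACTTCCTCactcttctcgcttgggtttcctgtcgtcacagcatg

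A promoter was matched for 44 of the 60 genes that fell, 11 of the 13 that rose and 12220 of the 15881 tested. GAGGAAGT on either strand was in 8 of the 44 (18.2%), in 0 of the 11 and in 3.30% of all. The shorter, overlapping AGGAAG was in 38 of the 44 (86.4%), in 3 of the 11 and in 37.3% of all, and GGAAGT in 23 (52.3%), 2 and 29.8%. GAGGAA was in 32 (72.7%), 2 and 30.3%. TAATCC, a core bound by Otx-type homeodomain factors, was in 4 of the 44, 0 of the 11 and 7.02% of all. These are matches of letters, not measured binding sites.

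Genes of the oligodendrocyte lineage showed no called change. The 5 oligodendrocyte lineage lists hold 87 genes, all of which were tested, and edgeR called 0 of them (2 had an unadjusted p under 0.05, and the smallest adjusted p was 0.9997). Their median log2 change was -0.12, 56 lay below 0 and 31 above, and the range ran from -0.67 for Hes5 to 0.77 for Enpp2. The direction of the list medians, all between -0.15 and -0.06, changed under at least 2 of 12 alternative settings for every list. The median 95% interval extended 0.73 to either side, and for 49 of the 87 genes it lay within a 2-fold change in either direction. For the other 38 genes a 2-fold change remained inside the interval.

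Myelin structural genes gave no calls. Mbp, the basic protein that compacts the myelin sheath, was at 17580, 9191 and 14823 CPM on placebo and at 11606 and 9738 CPM on PLX5622. Placebo library 2 was lowest and the treated libraries fell within the placebo range. The log2 change of Mbp was -0.38 ± 0.39 (95% interval -1.26 to 0.49). Per transcript length, Mbp stood at 8207 ± 2495 TPM (SD, n = 3) on placebo and 6523 ± 1318 TPM (n = 2) on PLX5622. Cmtm5, a small membrane protein of myelin, was the structural gene with the largest change, at 130, 89.4 and 144 CPM against 78.9 and 80.4 CPM. It did not overlap between groups and was not called (-0.62 ± 0.27). The 20 structural genes summed to 36904, 20252 and 33908 CPM on placebo and 27005 and 23538 CPM on PLX5622.

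Genes of mature oligodendrocytes also varied within the groups. Trf, the iron carrier transferrin, was at 848, 362 and 495 CPM on placebo and at 978 and 287 CPM on PLX5622, so the treated libraries enclosed the placebo range. Car2, a carbonic anhydrase, and Qdpr, a reductase of biopterin, had log2 changes of -0.22 ± 0.33 and -0.25 ± 0.28. Enpp2, which makes lysophosphatidic acid, was at 604, 310 and 578 CPM on placebo and at 928 and 777 CPM on PLX5622, entirely higher but not called (0.77 ± 0.37). Choroid plexus expresses Enpp2 as well, and the choroid list below holds it.

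Newly formed oligodendrocytes were followed by Bcas1, a marker of cells that begin to myelinate, which was at 383 to 614 CPM on placebo and at 447 and 565 CPM on PLX5622 (-0.05 ± 0.27). Gpr17, a receptor of cells committed to differentiation, was at 94.8, 67.1 and 62.4 CPM and at 84.8 and 23.8 CPM. PLX5622 library 2 alone lay below placebo. Tcf7l2, a Wnt effector in these cells that thalamic neurons also express, was at 60.7 CPM in PLX5622 library 1 and at 7.002 CPM in library 2, outside the placebo range of 10.9 to 29.7 CPM on both sides.

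Precursor genes gave no calls, and several differed widely between the 2 treated libraries. Pdgfra, the growth factor receptor that marks precursors, was at 56.6, 62.1 and 48.6 CPM on placebo and at 56.6 and 34.8 CPM on PLX5622 (-0.28 ± 0.31, 95% interval -0.98 to 0.41). Ptprz1 and Gpr37l1 were at 247 and 293 CPM in PLX5622 library 1 and at 108 and 110 CPM in library 2, again on either side of placebo. Over the lineage, 66 of 87 genes were higher in PLX5622 library 1 than in library 2. The transcription factors Olig2, Olig1 and Myrf, which specify the lineage and drive myelin genes, changed by -0.14 ± 0.29, -0.17 ± 0.38 and 0.20 ± 0.32. Hes5, a Notch target that holds cells back from differentiation, was at 26.0, 19.1 and 25.2 CPM on placebo and at 15.0 and 14.8 CPM on PLX5622. It was entirely lower and was not called (-0.67 ± 0.30).

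**Figure D4:**
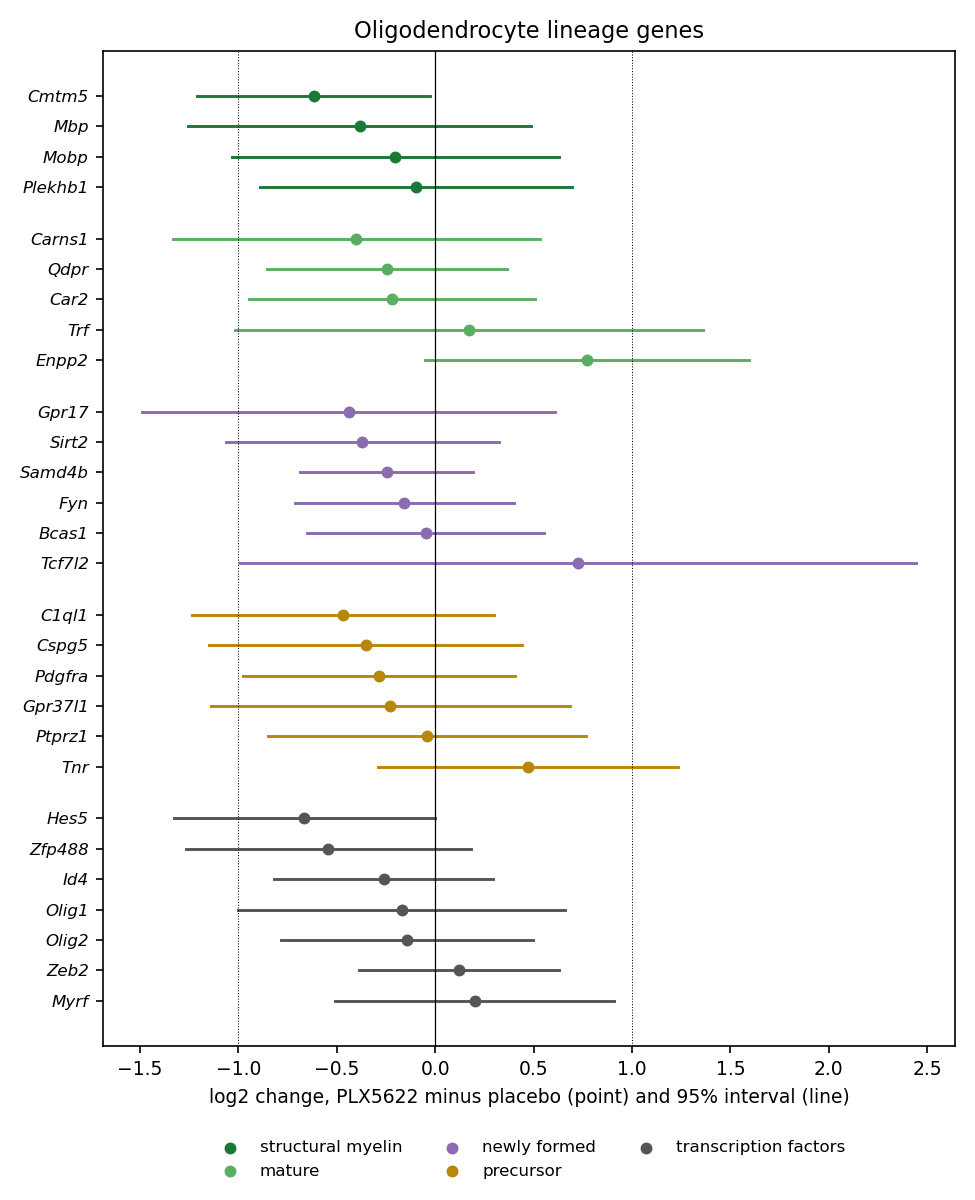
Log2 change on PLX5622 (point) and 95% interval (line) for oligodendrocyte lineage genes, grouped by stage, with dotted lines at a 2-fold change. Most intervals cross 0, those of Cmtm5 and Hes5 end just below it, and Tcf7l2 has the widest.

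Genes that oligodendrocytes use under stress, that build cholesterol for myelin and that clear it gave no calls. The medians were -0.003 over 15 stress-responsive genes, 0.02 over 21 cholesterol synthesis genes and -0.05 over 16 sterol efflux and lipid clearance genes. Single stress-responsive genes ranged from -5.23 to 1.32. Of the 15, 2 were entirely lower and 2 entirely higher, against 7.15% and 7.06% of all genes. Plin4, a lipid droplet protein, was at 18.4, 67.5 and 137 CPM on placebo and at 12.2 and 323 CPM on PLX5622. Sgk1, a kinase induced by glucocorticoids, was at 320 to 390 CPM on placebo, 73.2 CPM in PLX5622 library 1 and 394 CPM in library 2. Both genes were low in treated library 1 and high in library 2, and Sgk1 was called lower when library 2 was left out (adjusted p = 0.0474). The sterol regulator Srebf2 and Hmgcs1, an enzyme of cholesterol synthesis, changed by -0.05 ± 0.33 and 0.08 ± 0.33.

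Among 29 growth factors and receptors that act on myelination 1 fell. Tgfbr1, a receptor of transforming growth factor β that microglia need to keep their identity, was at 42.1, 49.9 and 56.3 CPM on placebo and at 13.8 and 18.3 CPM on PLX5622. Both treated libraries lay below all placebo libraries, with 32.5% left (-1.64 ± 0.25, adjusted p = 0.0205), and the call was lost without each placebo library (0.0518 to 0.104). Its ligand Tgfb1 was at 6.37, 7.52 and 6.02 CPM on placebo and at 1.44 and 0.93 CPM on PLX5622. The groups did not overlap, and edgeR did not call it (-2.44 ± 0.56, adjusted p = 0.169), while DESeq2 did (0.00406), as did edgeR without the low-count filter (0.032). Igf2, which choroid plexus and meninges make, was at 48.5, 51.1 and 59.3 CPM on placebo and at 131 and 123 CPM on PLX5622, and was not called (1.25 ± 0.34, adjusted p = 0.376). Igf1, a growth factor of microglia and neurons, changed by 0.26. Fgfr3 and Lpar1, receptors of the oligodendrocyte lineage, changed by 0.02 ± 0.23 and -0.25 ± 0.27.

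The genes that rose were mostly those of choroid plexus, the epithelium in the ventricles that makes cerebrospinal fluid. Of 20 choroid plexus genes 9 rose and none fell, the median was 2.03, and 18 were higher in both treated libraries than in every placebo library. Over all genes tested, 0.0819% rose and 7.06% were entirely higher. The choroid plexus genes summed to 937, 691 and 1044 CPM on placebo and to 2635 and 2525 CPM on PLX5622. Ttr, the thyroid hormone carrier transthyretin, was at 217, 236 and 304 CPM on placebo and at 1356 and 1228 CPM on PLX5622, 5.12-fold higher (log2 change 2.35 ± 0.38, adjusted p = 0.0267). The groups lay far apart for Ttr, while its spread within each group was small. The prolactin receptor Prlr went from 3.35, 5.74 and 10.4 CPM to 34.3 and 56.5 CPM, and the tight junction gene Cldn2 from 0.54, 1.23 and 1.56 CPM to 9.12 and 11.2 CPM. Kl, which encodes klotho, rose from 15.8 to 17.8 CPM to 57.5 and 55.6 CPM.

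Transport genes of the same epithelium rose too. The potassium channel gene Kcnj13 went from 1.84, 2.73 and 2.94 CPM to 13.4 and 24.04 CPM, the bicarbonate transporter Slc4a5 from 1.09 to 1.89 CPM to 10.9 and 29.1 CPM, and the channel subunit Kcne2 from 0.97 to 2.32 CPM to 8.74 and 11.6 CPM. The folate receptor Folr1 and the metalloreductase Steap1 had log2 changes of 2.31 ± 0.41 and 3.89 ± 0.65. Outside the list, Tmem72 (4.37 ± 0.75), the glucose transporter Slc2a12 (2.21 ± 0.33), the monoamine transporter Slc29a4 (1.41 ± 0.25) and the NF-κB cofactor Bcl3 (2.40 ± 0.43) completed the 13. Adjusted p-values of the 13 ran from 0.0195 to 0.046. None of the 13 was called in every fit that left out 1 library. Ttr, for instance, had an adjusted p of 0.184 without placebo library 1, 0.182 without library 2 and 0.104 without library 3, and DESeq2 called all 13.

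Choroid plexus is not part of the callosum, and its summed level moved with the diet. Choroid plexus carried along in a dissection and an effect of the diet cannot be told apart in these 5 libraries. Control cortex showed choroid sums of 221 to 948 CPM on placebo and 255 to 526 CPM on PLX5622, and control striatum 444 and 563 CPM against 377 and 851 CPM. In the callosum of the α-synuclein line the difference ran the other way, with sums of 11637 and 4881 CPM on placebo and 1008 and 1168 CPM on PLX5622. Ependymal genes, which mark the ventricle wall, summed to 52.5 to 80.9 CPM on placebo and 73.4 and 89.2 CPM on PLX5622, with 0 of 15 called and a median of 0.25. Fibroblast and meningeal genes summed to 261 to 294 CPM on placebo and 339 and 412 CPM on PLX5622, with 0 of 15 called.

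Other glia, vessels and neurons gave 0 calls with edgeR. The 20 reactive astrocyte genes tested had a median of 0.51, and 18 lay above 0. Gfap, the astrocyte filament gene, was at 954, 315 and 397 CPM on placebo and at 919 and 578 CPM on PLX5622. Placebo library 1 was the highest of all 5, the groups overlapped and the log2 change was 0.43 ± 0.50. The 20 general astrocyte genes had a median of -0.03. Endothelial genes had a median of 0.32 and pericyte and smooth muscle genes of 0.32. Immediate early genes, which neurons switch on with activity, had a median of -0.68, with 16 of 17 below 0. They summed to 659 to 1576 CPM on placebo and to 536 and 854 CPM on PLX5622. Sorted control microglia held 3606 to 4704 CPM of them, so the list is not particular to neurons. Its median was 0.31 in control cortex and -0.58 in control striatum. The medians of the pan-neuronal, cortical, striatal and interneuron lists lay between -0.15 and 0.22. That of hippocampal and septal neuron genes was 0.35. Entirely higher were 3 of 15 hippocampal and septal, 5 of 20 reactive astrocyte and 3 of 20 endothelial genes, against 7.06% of all genes. Entirely lower were 3 of 15 cortical and 3 of 17 immediate early genes, against 7.15% of all genes. Cell cycle and mitochondrial oxidative phosphorylation genes had medians of 0.03 and -0.02.

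**Figure D5:**
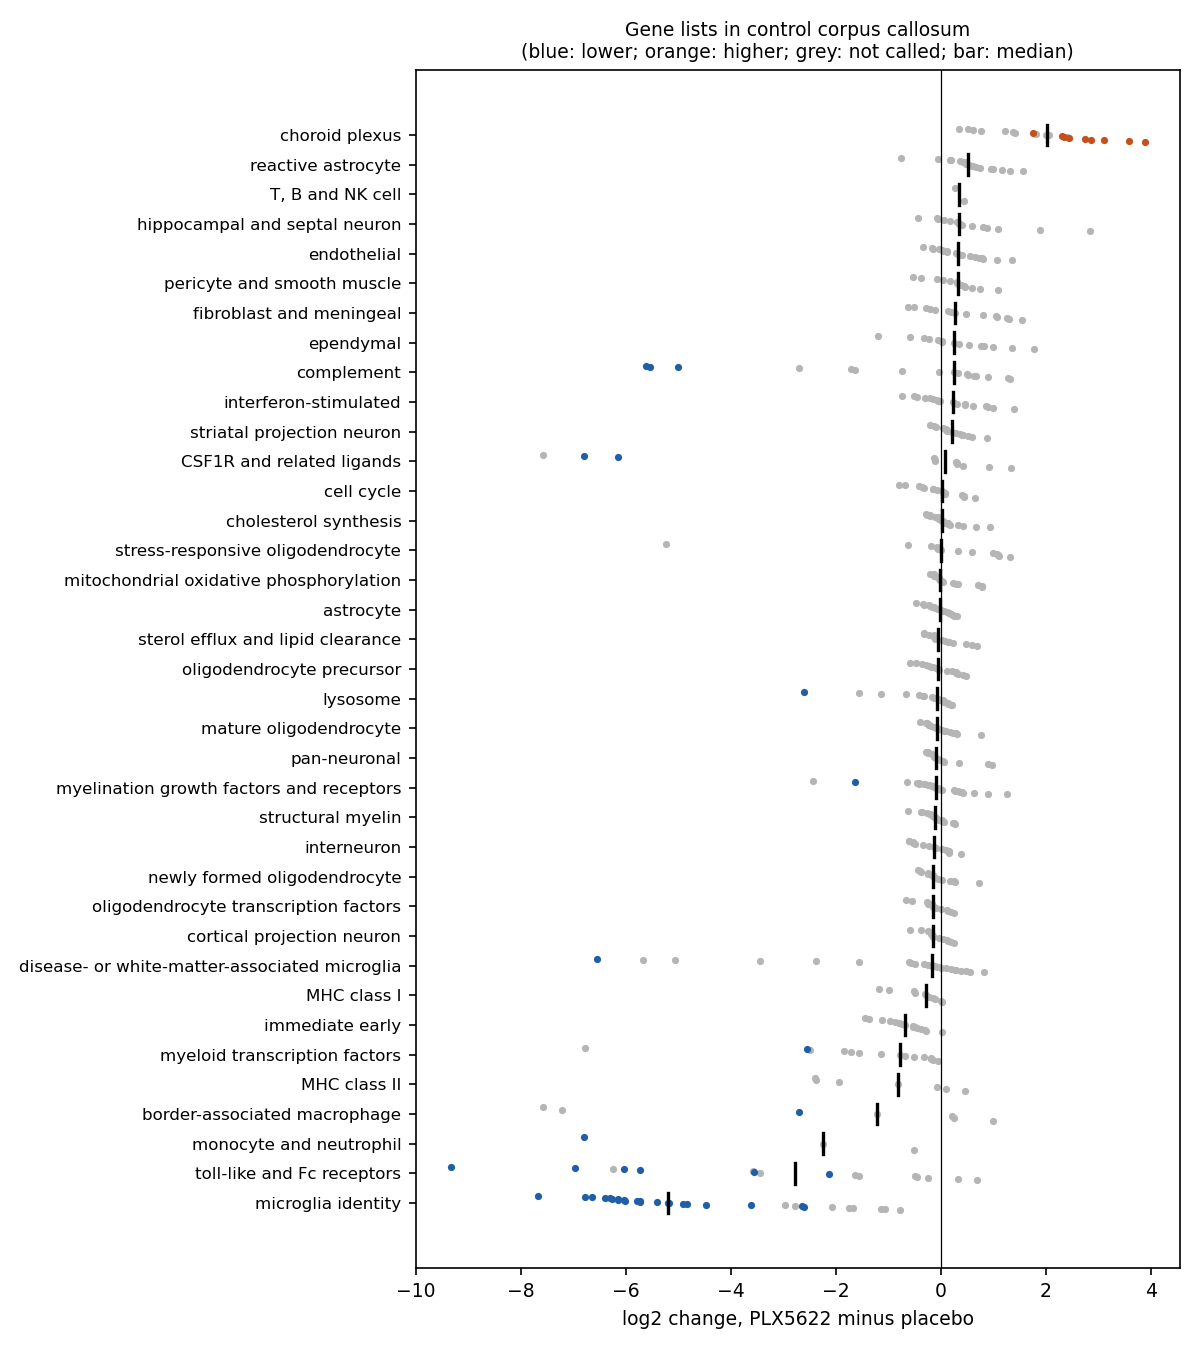
Log2 change of every tested member of the 37 gene lists, ordered by list median (black bar), with genes that rose in orange and genes that fell in blue. Choroid plexus at the top and microglia identity at the bottom stand away from 0, and the lists of oligodendrocyte stages have medians near it.

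Whether callosum responded differently from grey matter was tested as the difference of the diet effects, on the 15 control libraries of the 3 regions. Against cortex edgeR called 0 of 15645 genes (0.0%), with 186 (1.19%) at an unadjusted p under 0.05, and DESeq2 called 0. Against striatum edgeR called 0, with 158 (1.01%) at an unadjusted p under 0.05, and DESeq2 called 1 (0.00483%), Slc17a6. For Slc17a6 the edgeR adjusted p was 0.586. In striatum Slc17a6 was at 16.9 and 2.75 CPM on placebo and at 0.52 and 0.21 CPM on PLX5622, so the placebo libraries differed widely and the treated ones were near the floor. The median standard error of the difference was 0.53 from cortex and 0.59 from striatum on the log2 scale, so large differences could be missed. The microglia identity genes had medians of -5.18 in callosum, -6.04 in cortex and -6.49 in striatum, where their sums on PLX5622 were 77.0 to 90.1 CPM in cortex and 89.5 and 109 CPM in striatum. Of the 30 identity genes 8 reached an unadjusted p under 0.05 for the difference from cortex and 2 for that from striatum, none of them past the adjusted threshold. Mbp changed by -0.37 ± 0.43, -0.15 ± 0.38 and -0.06 ± 0.46. Choroid plexus genes had medians of 2.04 in callosum, -0.42 in cortex and 0.37 in striatum, and 11 of 20 reached an unadjusted p under 0.05 for the difference from cortex, none of them past the adjusted threshold. In control striatum, both libraries titled PLX bear a tag of no treatment, and the title was followed.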

How the data were processed

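Poly(A) RNA of mouse tissue was sequenced. STAR, HOMER, DESeq2 and mm10 are named per the submitters' processing notes. Not given in the sources used here are their versions and the strand setting, so reads of a gene and its antisense partner cannot be separated. The authors deposited unnormalised counts, whole numbers for each of 24940 genes, with each library's total in the header. The authors also deposited TPM values, used here only to give the level of Mbp on each diet.

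Libraries were grouped by title. CPM is the count per 1e6 assigned counts. All 9 corpus callosum libraries, 4 from the α-synuclein line among them, were fitted together so that they share an estimate of spread. Genes passed filterByExpr (minimum count 10) with TMM scaling and were tested with the 2-sided robust quasi-likelihood test of edgeR 4.0.16 (R 4.3.3), and a gene was called where the adjusted p (Benjamini-Hochberg) was under 0.05. Errors of log2 changes are standard errors of the fit. The test was checked on simulated counts. It recovered 6% of 100 genes with a log2 change of 1 and 57% of 100 with a change of 2. Of its 65 calls on those counts 3.08% were false. The share of false calls in the libraries themselves was not tested. For the difference from cortex the test recovered 0% and 12%, so genes that were not called may still have changed. Folds against 0 counts use a floor of 3 counts over the group. Intervals and floors cover counting error only. No pair of libraries was a copy.

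The comparison, the 37 lists (622 genes, 1 absent from the table), the naming rule and the alternatives were chosen with earlier results of these data known. Genes named are 11 fixed ones, every gene that rose, the 15 that fell with smallest p, up to 4 called members per list, for lineage, stress, cholesterol and growth factor lists the 4 uncalled members of highest level and the 2 of largest change, and the 5 microglia-enriched genes with most and with least left. Some genes that this rule names are not reported here. Others are named as members of a list or as picked later. Alternatives were DESeq2 1.42.0, RLE size factors, no filter on low counts, a block for the replicate number, leaving out each library, the 2 groups alone, libraries of low assignment left out, and a choroid plexus score as covariate. Promoters are RefSeq's, build GRCm38.p6.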

Additional observations from a re-analysis of the deposited data

Results flagged for a closer look

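Kcnj13, a potassium channel gene of choroid plexus, moved in opposite directions in callosum and striatum of control mice, with every treated library above every placebo library in callosum and below in striatum. In callosum it was at 1.84, 2.73 and 2.94 CPM on placebo and at 13.4 and 24.04 CPM on PLX5622, and in striatum at 1.71 and 1.33 CPM on placebo and at 0.73 and 0.74 CPM on PLX5622. The edgeR test of the difference between the diet effects gave a log2 difference of 3.86 ± 1.08 with an unadjusted p of 0.003 and an adjusted p of 1.00, so the difference did not pass the test over all genes. The striatum levels are close to 1 CPM, and the striatum libraries of the PLX5622 group carry a tag of no treatment.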

How the results depend on the processing

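Against 73 genes called in the report (60 lower, 13 higher), the total was 151 with DESeq2 (124 lower, 27 higher), 44 without libraries of low assignment (39 and 5, with 36 of the 60 and 3 of the 13 among them), 27 with the 2 groups alone (24 and 3) and 0 with the choroid plexus score as covariate (0 and 0); the cause was not tested. The score covariate leaves the log2 changes of Cx3cr1 and Csf1r at -6.37 and -6.58 (adjusted p = 0.139 and 0.314). With each library left out in turn the counts ran from 31 to 93 in all, 31 to 67 lower and 0 to 26 higher, and 28 of the 60 lower and 0 of the 13 higher genes were called every time. RLE size factors and no filter kept the counts within 1.5 times. The replicate number as a block called 16 genes, 16 lower and 0 higher; same-numbered libraries correlated at 0.34 and -0.02 in their deviations, and with 2 pairs they share only a number. The difference from striatum gave 1 call with DESeq2 and 0 otherwise. The median share left of microglia-enriched genes was 12.3% at 64 times or more, 67.5% at 5 CPM or more on placebo, and 48.4 to 57.0% with libraries left out. No called gene that is named above changed direction under any setting. Depth limits genes of a few CPM on placebo.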
